A study of Homo sapiens with 18 samples.

Results

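Krüppel-like factors (KLFs) are transcription factors that carry zinc fingers at their C terminus and bind GC-rich and CACCC-type sequences in promoters. The zinc fingers are much alike across the family, whereas the N-terminal regions differ and recruit different partners. KLF2, KLF4, KLF5 and KLF6 are best known as activators that work with acetyltransferases, KLF3 represses through C-terminal binding proteins, and KLF9, KLF10, KLF11 and KLF13 repress through the SIN3A corepressor. In epithelia, family members act in the balance between proliferation and differentiation, and KLF5 and KLF6 have been studied in the prostate.

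The RNA of 10 named KLF genes (KLF2, KLF3, KLF4, KLF5, KLF6, KLF9, KLF10, KLF11, KLF13 and KLF15) was followed among the 22034 genes of the count table. Members were chosen by name, with earlier results of these data known. All 10 were among the 14164 genes with enough counts to be tested. The table held 18 RNA-seq libraries of VCaP, a human prostate cancer line with the TMPRSS2:ERG fusion, which places the ETS transcription factor ERG under an androgen-responsive promoter. There were 6 groups of 3 libraries. VCaP cells carrying a doxycycline-inducible short hairpin RNA against ERG (shERG) received vehicle (shERG.DMSO) or 1 µg/mL doxycycline (shERG.Dox). Parental VCaP cells received DMSO or 50 µM PBITE-1, a small molecule that the study describes as a ligand of the PNT domain of ERG, for 4, 8 or 12 h. All cells grew in DMEM with 10% serum. The comparisons ask how KLF RNA levels follow the loss of ERG and the exposure to PBITE-1. Libraries of doxycycline-treated cells without the ERG hairpin were not analysed here, so an effect of doxycycline itself and one of the hairpin cannot be told apart. The labels do not give the duration of doxycycline. A group name in a supplementary plot has 12 h, whereas the study describes days of doxycycline for other assays of this line. The labels also do not give the time at which the DMSO cells were collected, so hours of PBITE-1 and hours in culture cannot be told apart.

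Sequence upstream of a RefSeq transcript start is shown for 4 members, the 3 with the largest fold changes below and KLF11, which fell with ERG knockdown. Promoter windows of RefSeq (GRCh38.p14), 250 bases before to 50 bases after the start, were used for 8 of the 10 members. KLF3 and KLF10 had no window among those used. The stretches lie outside annotated exons and are written on the gene's own strand. Those of KLF4 and KLF11 lie inside the gene bounds of GENCODE given with the levels, whose outermost start is farther upstream, and those of KLF2 and KLF6 lie outside the bounds. For KLF2 (chr19:16324646-16324765, plus strand) the capitals mark a site for MEF2 factors, 120 to 111 bases upstream of the start. For KLF4 (chr9:107489900-107490019, minus strand) they mark a pair of CRE half-sites (TGACG on the other strand) and an E-box (CACGTG). For KLF6 (chr10:3785340-3785459, minus strand) they mark a CCAAT box on the other strand. For KLF11 (chr2:10044011-10044090, plus strand) they mark a full cyclic AMP response element (CRE, TGACGTCA).
KLF2: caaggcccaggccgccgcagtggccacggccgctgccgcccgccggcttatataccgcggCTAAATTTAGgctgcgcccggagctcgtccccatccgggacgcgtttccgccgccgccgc
KLF4: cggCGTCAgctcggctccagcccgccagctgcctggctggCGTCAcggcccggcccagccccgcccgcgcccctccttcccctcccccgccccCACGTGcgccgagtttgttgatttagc
KLF6: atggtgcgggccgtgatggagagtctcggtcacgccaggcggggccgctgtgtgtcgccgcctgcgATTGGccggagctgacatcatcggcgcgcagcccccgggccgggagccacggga
KLF11: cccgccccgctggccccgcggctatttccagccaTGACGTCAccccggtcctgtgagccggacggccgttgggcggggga

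Matches were counted on both strands in the 10 member windows (KLF5 and KLF11 each had a pair) and in all 35116 windows. The GC box (GGGCGG) was found in 8 member windows and in 45.0% of all windows. The E-box was found in 4 and in 7.26% of all, the CCAAT box in 5 and in 34.6%, the CRE half-site in 5 and in 24.6%, and the CACCC box in 4 and in 59.9%. The full CRE, present in the KLF11 window and in 1.85% of all, contains the half-site on both strands, so these matches overlap. The MEF2 site was found in the KLF2 window and in 2.99% of all, the TATA box (TATAAA) in a KLF5 window and in 11.5%, and the hormone response element (ACANNNTGT) in the same KLF5 window and in 5.37%. The letters CCGGAAG, an ETS core with flanks, were found in 10.3% of all windows, and the CArG box of serum response factor in 1.29%. Neither was in any of the 10 member windows, which do not cover KLF3 and KLF10. All of these are matches of letters in short windows and not binding sites.

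ERG, the targeted gene, was measured first. CPM are counts relative to the total of the tested genes, scaled within each line by TMM. ERG was at 461, 449 and 433 CPM in shERG.DMSO and at 166, 167 and 159 CPM in shERG.Dox. This was a fall of 1.44 on the log2 scale (SE 0.04, adjusted p = 3.29e-22, limma-voom with Benjamini-Hochberg adjustment over all tested genes). In parental cells ERG RNA was 280 to 298 CPM with DMSO, 178 to 184 after 4 h of PBITE-1, 90.7 to 96.6 after 8 h and 88.5 to 102 after 12 h. The log2 differences from DMSO were −0.68 (SE 0.04) at 4 h, −1.62 (SE 0.05) at 8 h and −1.58 (SE 0.05) at 12 h. ERG RNA was therefore lower in both systems, and the KLF values below stand beside that.

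Library totals ran from 11308600 to 17483423 counts. All 8 luminal prostate markers (KLK3, KLK2, FOXA1, HOXB13, TMPRSS2, KRT8, KRT18 and EPCAM) were present, and their summed level was 3990 to 4250 CPM with DMSO, 4070 to 4350 after 4 h, 3240 to 3390 after 8 h and 1860 to 2030 after 12 h of PBITE-1. The same sum was 5020 to 5200 CPM in shERG.DMSO and 4040 to 4230 in shERG.Dox. Markers of other cell types summed to at most 5.86 CPM (basal epithelium, KRT14 and TP63), 9.28 (stroma, 4 genes), 2.08 (endothelium, 3 genes) and 1.5 (immune cells, 3 genes) in any library. CDH5 and CD3E had at most 1 count in any library and DCN at most 2. The stroma sum was 1.35 to 2.32 CPM in shERG.DMSO and 7.52 to 8.86 in shERG.Dox, and 1.89 to 2.96 with DMSO, 3.46 to 4.21 after 4 h, 5.58 to 8.61 after 8 h and 5.31 to 9.28 after 12 h of PBITE-1. COL1A1, on 13 to 110 counts per library, was called higher with doxycycline (2.09) and at 4, 8 and 12 h (1.15, 2.01 and 2.19), and LUM, on 7 to 37 counts, with doxycycline (2.06). TP63 (4.27 and 4.64, on at most 14 counts) and PECAM1 (2.10 and 4.08, on at most 26 counts) were called higher at 8 h and 12 h. The other tested basal and endothelial markers went the other way with PBITE-1. KRT14, on 10 to 96 counts, was called lower at 12 h (−2.35). VWF, on at most 25 counts, was called lower at 4, 8 and 12 h (−1.33, −1.20 and −3.28) and higher with doxycycline (1.19). These markers were named after their values were seen. In bulk RNA, fewer cells of a kind and less RNA per cell cannot be told apart. The luminal sum was lower with doxycycline and at 8 h and 12 h of PBITE-1, with KLK2 ranging from 8260 to 50764 counts per library, and the markers differed in direction. At an unadjusted p under 0.05, 3 luminal markers were higher and 4 lower with doxycycline, and 2 were higher at each PBITE-1 time with 4, 6 and 5 lower. KRT8 stood at 0.31 with doxycycline and at 0.59, 0.92 and 0.95 with PBITE-1, under the fold threshold. With doxycycline and at 4, 8 and 12 h, 0 luminal markers were called higher, beside 12%, 7.28%, 14.9% and 17.1% of all tested genes. Called lower were 1, 1, 2 and 4, beside 7.19%, 2.99%, 8.86% and 15.4%. TMPRSS2 was lower in all 4 comparisons (−1.02, −1.39, −1.95 and −1.95). HOXB13 was lower at 8 h and 12 h (−1.08 and −1.31), and KLK3 (−3.42) and KLK2 (−2.13) at 12 h. The part of these marker changes in the KLF values was not tested.

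With PBITE-1, KLF2, KLF4, KLF5 and KLF6 rose by more than 1 on the log2 scale at all times and KLF3, KLF9, KLF10 and KLF15 at some. A gene is called changed here where the adjusted p was under 0.05 and the log2 fold change exceeded 1 in size. At 4 h, 6 of the 10 members were called higher, beside 7.28% of all tested genes. At 8 h it was 7 members, beside 14.9%, and at 12 h 5 members, beside 17.1%. By limma-voom 0 members were called lower at any time, beside 2.99%, 8.86% and 15.4% of all genes. At an unadjusted p under 0.05, 1, 0 and 1 members were lower at 4, 8 and 12 h, and edgeR and DESeq2 also called 0. Across the members the median log2 fold change came to 1.29, 1.45 and 1.16 at the 3 times, against −0.01, −0.02 and −0.01 over all tested genes. With the adjusted p alone, 8, 10 and 9 members were higher, where 26.4%, 35.9% and 39.4% of all genes were, and 0, 0 and 1 lower, where 24.7%, 37% and 39.4% were. The times share the same 3 DMSO libraries.

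**Figure D1:**
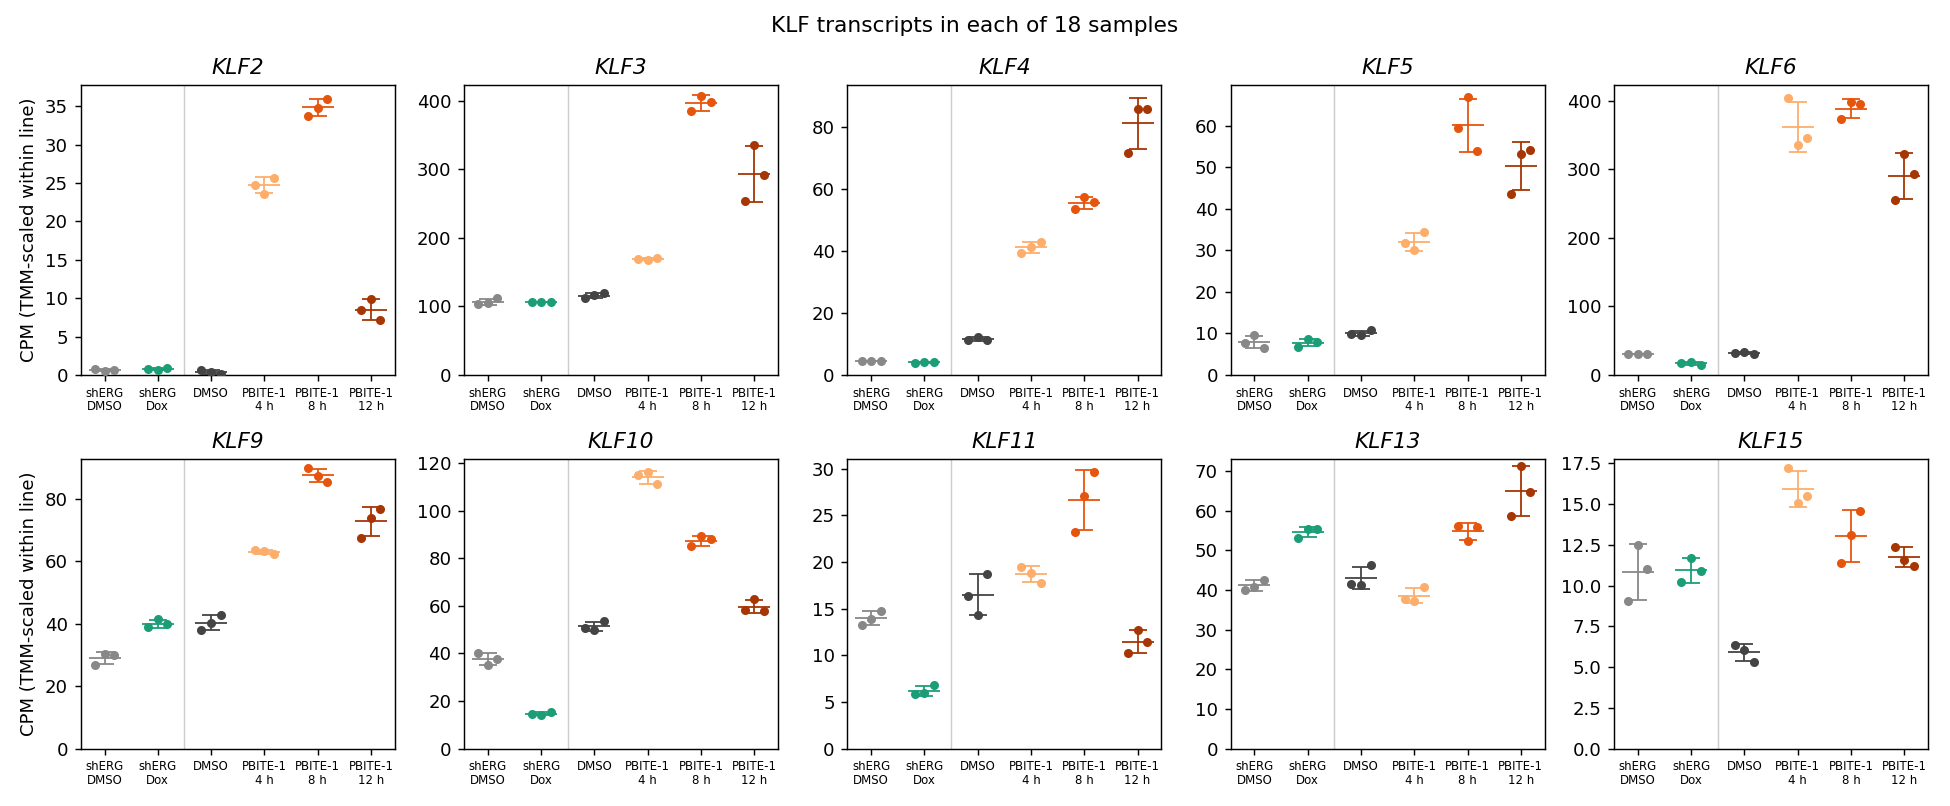
CPM (TMM-scaled within each line) of each KLF gene in all 18 libraries, by group; points are libraries, horizontal lines the group mean, and bars the SD (n = 3). KLF2 sat below 1 CPM in all 9 libraries without PBITE-1 and at 7.13 to 36.0 CPM in the 9 with it, and KLF10 and KLF11 had their lowest group means in shERG.Dox.

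The activators KLF2, KLF4, KLF5 and KLF6 were called higher at all 3 times. KLF2 (ENSG00000127528, chromosome 19, 16324817 to 16327874, plus strand, GRCh38) is a regulator of vascular tone and lymphocyte quiescence that is induced in endothelium by flow. Its RNA was nearly absent before treatment, at 0.657, 0.427 and 0.114 CPM with DMSO, which are 10, 7 and 2 counts. At 4 h it stood at 24.8, 23.6 and 25.7 CPM and at 8 h at 33.8, 34.8 and 36.0 CPM. At 12 h it was 8.49, 9.94 and 7.13 CPM. Every PBITE-1 library was thus above every DMSO library, and the 12 h libraries lay below those of the earlier times. Against DMSO this was a log2 fold change of 6.16 (SE 0.43, adjusted p = 3.13e-15), 6.65 (SE 0.43, adjusted p = 6.67e-17) and 4.61 (SE 0.44, adjusted p = 3.16e-12). They rest on the few DMSO counts: without DMSO replicate 3 they were 5.47, 5.96 and 3.93.

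KLF6 (ENSG00000067082, chromosome 10, 3775996 to 3785281, minus strand) is an early response gene that has been described as a growth suppressor in the prostate. With DMSO it measured 32.5, 33.1 and 30.4 CPM, and at 4 h 404, 336 and 346 CPM. At 8 h it measured 373, 398 and 396 CPM and at 12 h 255, 322 and 293 CPM. It rose by 3.49 (SE 0.08, adjusted p = 2.37e-30), 3.60 (SE 0.08, adjusted p = 3.14e-31) and 3.18 (SE 0.08, adjusted p = 1.28e-29) on the log2 scale, an 11.3-, 12.1- and 9.04-fold difference. The 4 h and 8 h libraries overlapped, and their difference of 0.11 (SE 0.05) had an adjusted p of 0.0936. Most of the KLF6 increase was therefore already measured at 4 h.

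KLF4 (ENSG00000136826, chromosome 9, 107484852 to 107490482, minus strand) promotes epithelial differentiation and is one of the factors used to reprogram cells to pluripotency. Its level was 11.4, 12.3 and 11.1 CPM with DMSO, 39.4, 41.3 and 42.9 CPM at 4 h, 53.5, 57.3 and 55.8 CPM at 8 h and 71.7, 85.8 and 85.8 CPM at 12 h. No group overlapped the next. KLF4 rose by 1.83, 2.26 and 2.80 on the log2 scale (SE 0.10 each, adjusted p = 3.31e-18, 3.29e-22 and 5.55e-26). The 12 h level exceeded the 8 h level by 0.55 (SE 0.06, adjusted p = 9.03e-10) and the 4 h level by 0.97 (SE 0.07, adjusted p = 8.7e-16), both under the fold threshold. KLF4 and KLF13 were the members whose 12 h mean was the highest of the 4 parental groups.

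KLF5 (ENSG00000102554, chromosome 13, 73054976 to 73077542, plus strand) supports proliferation of basal and progenitor cells in several epithelia. Its level was 9.64 to 10.7 CPM with DMSO, 30.0 to 34.4 after 4 h, 53.9 to 66.8 after 8 h and 43.6 to 54.2 after 12 h. The 8 h and 12 h libraries overlapped, whereas DMSO and 4 h stood apart from each other and from the later times. KLF5 rose by 1.67 (SE 0.12), 2.58 (SE 0.11) and 2.32 (SE 0.11) on the log2 scale, with adjusted p = 7.89e-15, 3.3e-22 and 7.16e-21. The step from 4 h to 8 h was 0.91 (SE 0.08, adjusted p = 5.74e-12), under the fold threshold.

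KLF3, the member that represses through C-terminal binding proteins (ENSG00000109787, chromosome 4, 38664196 to 38701042, plus strand), was slower. It measured 112, 116 and 119 CPM with DMSO and 169, 167 and 171 CPM at 4 h, then 385, 407 and 398 CPM at 8 h and 253, 335 and 291 CPM at 12 h. The groups did not overlap. At 4 h the difference of 0.55 (SE 0.06, adjusted p = 1.48e-09) was under the fold threshold, and KLF3 was called higher at 8 h (1.78, SE 0.06, adjusted p = 1.68e-26) and 12 h (1.34, SE 0.06, adjusted p = 1.85e-22). Its exons overlap those of KLF3-AS1 on the other strand. Whether the counting used strand is not given in the sources used here, so reads of that transcript cannot be told apart from those of KLF3.

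Among the SIN3A-binding members KLF9 was called at 8 h, KLF10 at 4 h, and KLF11 and KLF13 at no time against DMSO. KLF9 (ENSG00000119138, chromosome 9, 70384597 to 70414624, minus strand), a gene induced by glucocorticoid and thyroid hormone, was at 38.0 to 42.8 CPM with DMSO, 62.3 to 63.7 after 4 h, 85.4 to 89.8 after 8 h and 67.6 to 76.9 after 12 h. Its libraries did not overlap between DMSO and any time. The log2 fold change passed the fold threshold at 8 h (1.12, SE 0.06, adjusted p = 2.03e-19) and was 0.64 (SE 0.06) at 4 h and 0.85 (SE 0.06) at 12 h. KLF13 (ENSG00000169926, chromosome 15, 31326855 to 31435665, plus strand), known as an activator of CCL5 in T cells, was called at no time. Its log2 differences were −0.16 (SE 0.07, adjusted p = 0.0716), 0.35 (SE 0.07, adjusted p = 2.31e-05) and 0.59 (SE 0.07, adjusted p = 2.18e-10), with libraries at 41.3 to 46.3, 37.3 to 40.7, 52.3 to 56.2 and 58.7 to 71.4 CPM from DMSO to 12 h.

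KLF10 and KLF11 are closely related early response genes of TGF-beta. KLF10 (ENSG00000155090, chromosome 8, 102648779 to 102655902, minus strand) was at 50.7, 49.9 and 53.6 CPM with DMSO and at 115, 116 and 111 CPM at 4 h, after which it was 85.1, 89.2 and 87.9 CPM at 8 h and 58.2, 62.7 and 57.9 CPM at 12 h. It was the member whose level was highest at 4 h and lower at each later time without overlap. It was called higher at 4 h (1.15, SE 0.05, adjusted p = 1.04e-20), while the log2 difference was 0.76 (SE 0.05, adjusted p = 1.58e-15) at 8 h and 0.21 (SE 0.06, adjusted p = 0.00105) at 12 h. KLF11 (ENSG00000172059, chromosome 2, 10042849 to 10054836, plus strand) was at 16.4, 14.3 and 18.7 CPM with DMSO, 19.5, 18.8 and 17.8 CPM at 4 h, 23.2, 27.1 and 29.6 CPM at 8 h and 10.3, 12.7 and 11.4 CPM at 12 h. It was called at no time against DMSO, with log2 differences of 0.18 (SE 0.11, adjusted p = 0.162), 0.67 (SE 0.10, adjusted p = 1.7e-07) and −0.51 (SE 0.12, adjusted p = 0.000229). The 4 h libraries overlapped those of DMSO, the 8 h libraries lay above and the 12 h libraries below. KLF11 exons overlap AC104794.4 on the other strand, with the same limit as for KLF3.

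KLF15 (ENSG00000163884, chromosome 3, 126342635 to 126357442, minus strand), a regulator of amino acid and glucose metabolism that belongs to none of these classes, was among the least abundant members. It was at 5.31 to 6.37 CPM with DMSO, 15.1 to 17.2 after 4 h, 11.4 to 14.6 after 8 h and 11.2 to 12.4 after 12 h, with no overlap between DMSO and PBITE-1. The log2 fold change was 1.43 (SE 0.13, adjusted p = 1.17e-11) at 4 h and 1.12 (SE 0.14, adjusted p = 2.86e-09) at 8 h. At 12 h it was 0.99 (SE 0.14, adjusted p = 3.81e-08), just under the fold threshold, and it was called there with DESeq2, with RLE scaling and with a filter of at least 10 counts in every sample, each at 1.00. It was also called at 12 h without DMSO replicate 1 (1.05) or 2 (1.01), PBITE-1 4 h replicate 1 (1.04), or PBITE-1 12 h replicate 2 (1.01) or 3 (1.03).

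**Figure D2:**
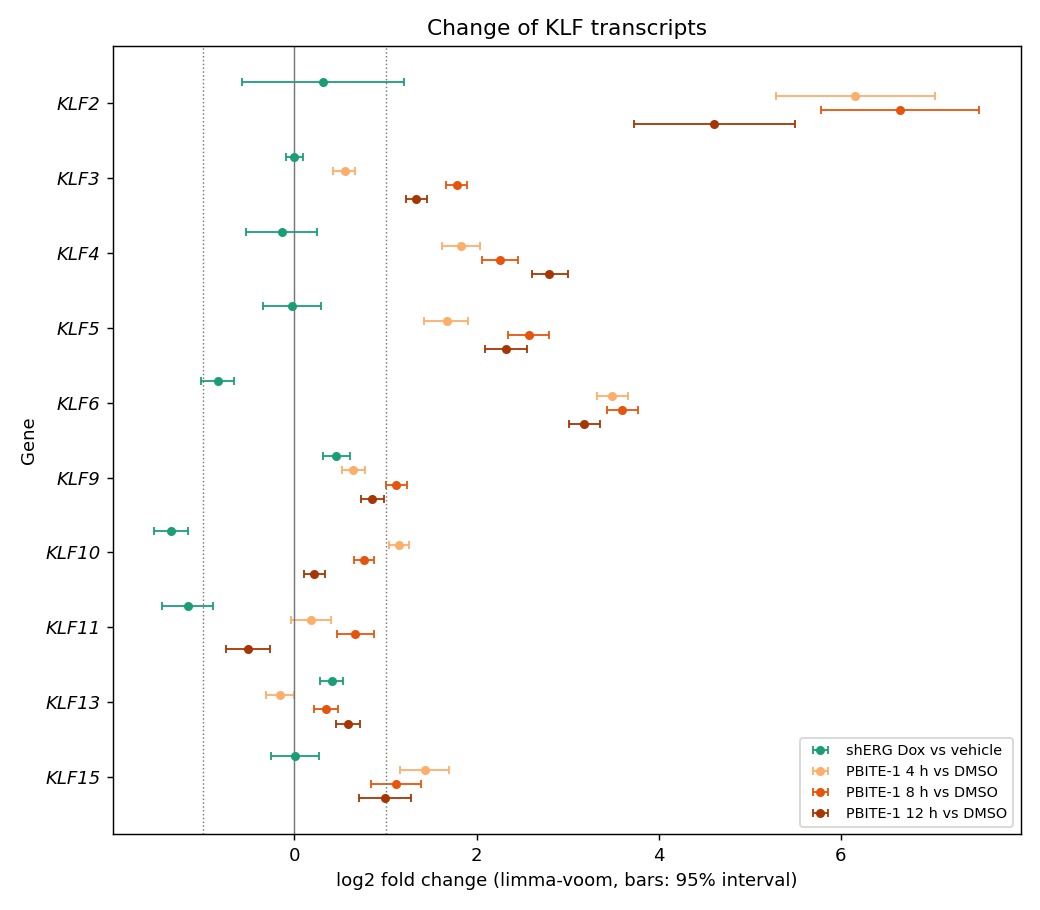
Log2 fold change of each KLF gene (limma-voom, bars are 95% intervals) with doxycycline in shERG cells and at 4, 8 and 12 h of PBITE-1 in parental cells; dotted lines mark the fold threshold. KLF2, KLF4, KLF5 and KLF6 lie above 1 at all PBITE-1 times, while KLF10 (−1.36) and KLF11 (−1.17) lie below −1 with doxycycline.

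The members differed in when their level moved between PBITE-1 times. From 4 h to 8 h, 1 member (KLF3, 1.23, SE 0.06, adjusted p = 1.61e-20) was called higher, beside 4.43% of all genes, and 0 were called lower by limma-voom, edgeR or DESeq2, beside 2.22% (2 at an unadjusted p under 0.05). From 8 h to 12 h, 2 members were called lower, beside 6.59%, namely KLF2 (−2.03, SE 0.12, adjusted p = 1.05e-17) and KLF11 (−1.18, SE 0.11, adjusted p = 1.76e-11). In that step 0 were called higher by any of these tools, beside 3.48% (2 at an unadjusted p under 0.05). From 4 h to 12 h, KLF2 was the 1 member called lower (−1.54, SE 0.12, adjusted p = 5.31e-14), beside 11%. KLF10 missed the fold threshold in that comparison at −0.93 (SE 0.05, adjusted p = 1.76e-18), and KLF4 at 0.97 in the other direction. KLF4 was called there without PBITE-1 12 h replicate 1 (1.06) or PBITE-1 4 h replicate 3 (1.00). 0 members were called higher from 4 h to 12 h by any of these tools, beside 9.08%, with 5 at an unadjusted p under 0.05. With the adjusted p alone, 7 members were higher and 2 lower from 4 h to 8 h (26.7% and 26.3% of all genes), 2 higher and 7 lower from 8 h to 12 h (27.8% and 32.5%), and 5 higher and 5 lower from 4 h to 12 h (35% each). KLF15 was flat from 8 h to 12 h within its error (−0.12, 95% interval −0.36 to 0.11).

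With ERG knockdown KLF10 and KLF11 fell. With doxycycline 2 members were called lower, beside 7.19% of all tested genes, and by limma-voom 0 were called higher, beside 12%, as with edgeR and DESeq2 (2 at an unadjusted p under 0.05). The members' median log2 fold change was −0.01, against 0.02 over all genes. KLF10 was at 40.0, 35.3 and 37.6 CPM in shERG.DMSO and at 14.5, 14.0 and 15.3 CPM in shERG.Dox, a fall of 1.36 on the log2 scale (SE 0.09, adjusted p = 3.51e-13), or 2.56-fold. KLF11 was at 13.3, 13.9 and 14.8 CPM and at 5.81, 5.99 and 6.82 CPM, a fall of 1.17 (SE 0.14, adjusted p = 2.14e-08), or 2.25-fold. For both TGF-beta responsive members every doxycycline library lay far below every vehicle library. Scaled by library size alone, which moved the median of all genes to 0.28, KLF10 stood at −1.10 and KLF11 at −0.91, so that KLF11 was then not called.

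KLF6, KLF9 and KLF13 passed the adjusted p but not the fold threshold. With the adjusted p alone, 2 members were higher with doxycycline, beside 35.1% of all genes, and 3 lower, beside 35.3%. KLF6 measured 30.3, 30.4 and 30.2 CPM in shERG.DMSO and 17.2, 18.7 and 15.0 CPM in shERG.Dox, a log2 difference of −0.84 (SE 0.09, adjusted p = 4.28e-09). KLF9 was higher, at 38.9 to 41.4 against 26.9 to 30.2 CPM (0.46, SE 0.07, adjusted p = 2.55e-06), and so was KLF13, at 53.2 to 55.4 against 40.1 to 42.6 CPM (0.41, SE 0.06, adjusted p = 1.3e-06). The libraries of these 3 genes did not overlap between the groups. Those of KLF4 did not overlap either, although its adjusted p by limma-voom was 0.529, so non-overlap with 3 libraries a group does not by itself mark a change.

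The other 5 members did not pass the test with doxycycline, although 4 of them rose with PBITE-1 at 4 h or later by more than the fold threshold and KLF15 at 4 h and 8 h. KLF3 had the narrowest interval, with 104, 105 and 112 CPM in shERG.DMSO and 107 in each shERG.Dox library, a log2 difference of 0.00 (95% interval −0.09 to 0.09). KLF15 differed by 0.01 (−0.26 to 0.27), KLF5 by −0.03 (−0.35 to 0.29) and KLF4 by −0.14 (−0.53 to 0.25). KLF2 differed by 0.31 (−0.58 to 1.20) on 8 to 12 counts per library, so a change of up to about the fold threshold could not be detected for it at this depth. The sign for KLF4 and KLF5 was positive with scaling by library size alone, at 0.12 and 0.23. Over the alternatives that kept all libraries, KLF3 reached 0.26, which lies above its interval. KLF15 reached 0.27 and KLF2 0.57 in them.

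The difference between the responses was tested itself, in a fit over all 18 libraries. The response to PBITE-1 exceeded that to doxycycline for 7 members at 4 h, 8 at 8 h and 6 at 12 h, beside 10.1%, 14% and 13% of all genes. By limma-voom, edgeR and DESeq2 0 members had a lower response to PBITE-1, beside 11.9%, 14.4% and 15.9%, and at an unadjusted p under 0.05 there were 1, 0 and 0. With the adjusted p alone, 8, 9 and 9 members had a higher response to PBITE-1 (33.1%, 34.8% and 33.3% of all genes) and 1, 0 and 0 a lower one (29.7%, 33.4% and 35.1%). The 3 differences share the DMSO and both shERG groups. The treatments also differ in cell line and agent, which cannot be told apart from the difference. The same holds for duration, which differs at 4 h and 8 h if doxycycline was given for 12 h, and at all 3 times if for longer. With scaling by library size alone the median difference of all genes moved to −0.28, −0.29 and −0.28 at the 3 times, from 0.01, 0.01 and −0.02 with TMM.

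KLF6 had the largest difference after KLF2, at 4.31, 4.41 and 3.98 on the log2 scale (SE 0.16 each, adjusted p = 5.84e-27, 1.32e-27 and 5.33e-26), and its level lay above the control with PBITE-1 and below it with doxycycline. KLF10 differed by 2.48 (SE 0.10), 2.09 (SE 0.10) and 1.53 (SE 0.11), with adjusted p = 1.12e-24, 3.89e-22 and 3.81e-17. KLF11 differed by 1.33 (SE 0.19, adjusted p = 3.36e-08) and 1.81 (SE 0.18, adjusted p = 4.68e-12) at 4 h and 8 h. At 12 h its difference was 0.62 (SE 0.19, adjusted p = 0.00432), and KLF11 stood below its own control in both systems. Thus the members that fell with ERG knockdown stood at or above the DMSO level at 4 h and 8 h of PBITE-1.

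For the remaining activators the difference came close to the PBITE-1 response, at 5.83, 6.31 and 4.26 for KLF2, 1.95, 2.36 and 2.90 for KLF4 and 1.68, 2.58 and 2.31 for KLF5. Without DMSO replicate 3 the KLF2 differences were 5.14, 5.64 and 3.59. KLF3 differed by 0.52, 1.75 and 1.29. KLF15 differed by 1.40, 1.08 and 0.95, and its 8 h value fell under the fold threshold without shERG.DMSO replicate 2 (0.97). Its 12 h value was called without shERG.DMSO replicate 1 (1.08), shERG.Dox replicate 2 (1.01) or DMSO replicate 1 (1.00). KLF9 and KLF13, whose levels were higher in both systems at 8 h, had differences under the fold threshold at all 3 times. KLF9 differed by 0.16 (95% interval −0.04 to 0.36), 0.63 and 0.35, and KLF13 by −0.59 (SE 0.10, adjusted p = 1.67e-06), −0.09 (−0.28 to 0.10) and 0.14 (−0.05 to 0.33).

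**Figure D3:**
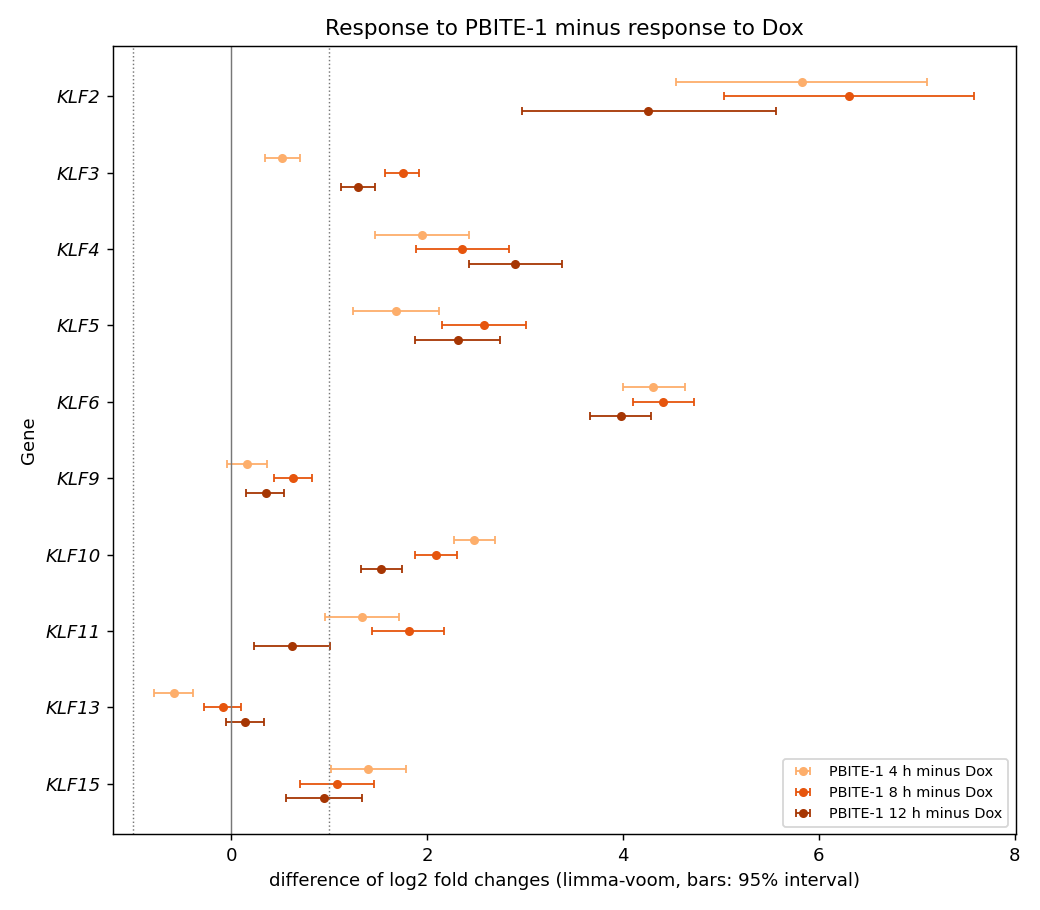
Response to PBITE-1 minus response to doxycycline for each KLF gene, as a difference of log2 fold changes with its 95% interval, at 4, 8 and 12 h. KLF6 lies at 3.98 to 4.41, KLF10 at 1.53 to 2.48, and the KLF9 and KLF13 values lie between −0.59 and 0.63.

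Levels between genes were compared as CPM per kb of exon. With DMSO the order was KLF3 (18.3 ± 0.513, SD, n = 3), KLF10 (12.8 ± 0.493), KLF9 (7.79 ± 0.468), KLF6 (5.22 ± 0.232), KLF13 (4.58 ± 0.298), KLF11 (3.59 ± 0.484), KLF4 (3.17 ± 0.179), KLF5 (2.58 ± 0.152), KLF15 (2.07 ± 0.191) and KLF2 (0.198 ± 0.135). KLF11 and KLF4 overlapped, and the libraries of all other neighbours stood apart. At 4 h KLF6 led (59 ± 5.98), ahead of KLF10 (28.5 ± 0.689) and KLF3 (26.8 ± 0.273). At 8 h KLF6 (63.3 ± 2.23) and KLF3 (63 ± 1.76) overlapped at the top, KLF10 followed (21.8 ± 0.52), and KLF2 (17.3 ± 0.563), KLF9 (16.9 ± 0.42) and KLF5 (15.4 ± 1.67) each overlapped the next in the order, KLF5 with KLF4 (15.2 ± 0.519), which stood apart from the genes below it. KLF2 thus moved from the lowest place with DMSO to the fourth at 4 h (12.3 ± 0.522) and at 8 h. Its libraries overlapped those of KLF9 at both times. At 12 h KLF6 (47.2 ± 5.52) and KLF3 (46.5 ± 6.5) still overlapped at the top, KLF4 was the third (22.2 ± 2.22), and KLF11 was the lowest (2.51 ± 0.262).

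In shERG.DMSO the 5 leading genes stood in the same order as in parental DMSO cells, with KLF3 at 17 ± 0.73, KLF10 at 9.4 ± 0.586 and KLF9 at 5.61 ± 0.349 CPM per kb. KLF4, at 1.23 ± 0.0334, was lower than in parental cells, and KLF15, at 3.81 ± 0.607, was higher, although the 2 lines were scaled apart and not tested against each other. In shERG.Dox KLF10 (3.65 ± 0.161) had moved from the second place to the fifth, behind KLF9 (7.75 ± 0.242), KLF13 (5.81 ± 0.137) and KLF15 (3.85 ± 0.262), although its libraries overlapped those of KLF15.

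**Figure D4:**
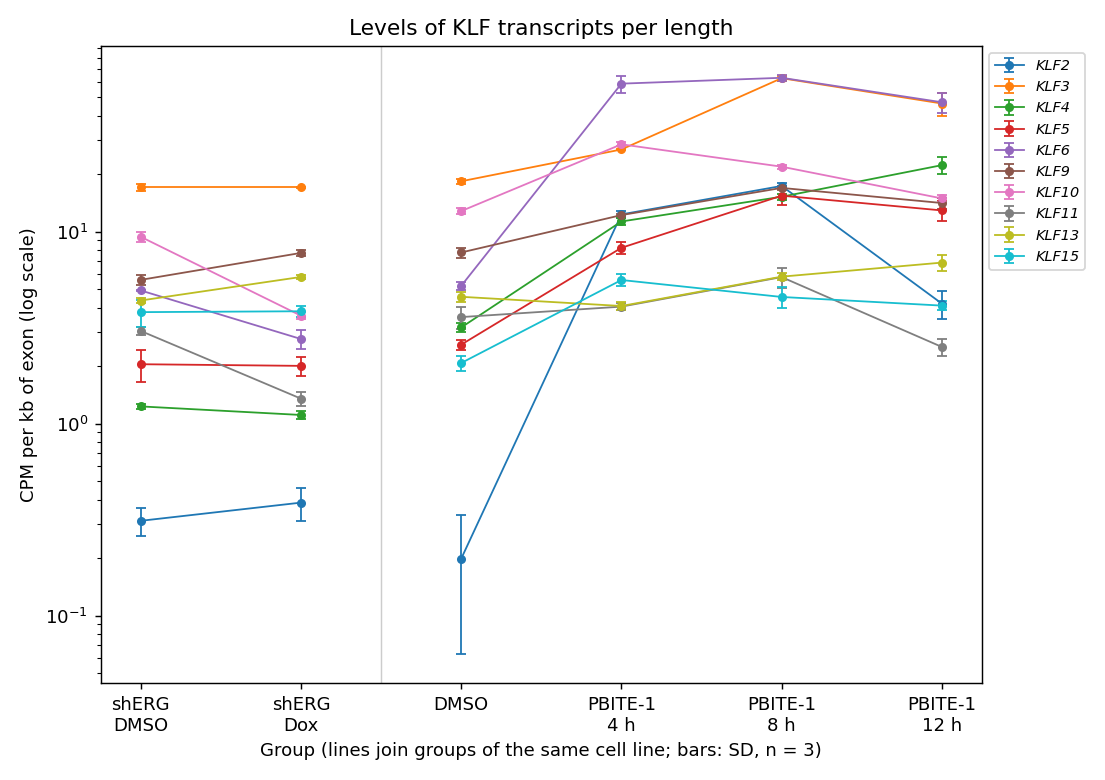
Mean CPM per kb of exon of each KLF gene by group on a log axis, with SD bars (n = 3); lines join the groups of a line of cells. KLF2 climbs from 0.198 with DMSO to 17.3 at 8 h, and KLF6 and KLF3 share the top at 8 h and 12 h.

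The rest of the KLF and SP family was looked at for comparison. Of 17 further genes 11 were tested, and 2 were called higher at 4 h, 4 at 8 h, 2 at 12 h and 3 with doxycycline, beside 7.28%, 14.9%, 17.1% and 12% of all tested genes, with median log2 fold changes of 0.11, 0.41, 0.15 and −0.03. KLF7, a relative of KLF6, went from 26.4 ± 1.5 CPM with DMSO to 135 ± 1.28 at 8 h (2.36, SE 0.09, adjusted p = 6.91e-24) and 108 ± 20.4 at 12 h (2.02, SE 0.09), while its 4 h level was 28.6 ± 1.98. SP4 was called higher at all 3 times (1.04, 1.66 and 1.80) and SP6 at 4 h and 8 h (1.26 and 1.63). With doxycycline KLF8 (1.64), KLF12 (1.34) and SP6 (1.12) were called higher, KLF8 on at most 14 counts and KLF12 on at most 31 counts per library. KLF8 was also called at 8 h (2.16), on 9 to 18 counts against 1 to 7 with DMSO. By limma-voom, edgeR and DESeq2 0 of the 11 were called lower in these 4 comparisons, although 2 to 4 were lower at an unadjusted p under 0.05. Of all tested genes, 2.99% were called lower at 4 h, 8.86% at 8 h, 15.4% at 12 h and 7.19% with doxycycline. SP6 at 8 h was named after its value was seen.

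Regulators placed upstream of KLF genes in the literature were listed next (the MEK5, ERK5 and MEF2 route, TGF-beta signalling and steroid receptors), and 15 of 16 were tested. With doxycycline and at 4 h 0 were called in either direction by limma-voom, edgeR or DESeq2, with 2 higher and 3 lower (doxycycline) and 5 higher and 1 lower (4 h) at an unadjusted p under 0.05. Of all tested genes 12% were called higher and 7.19% lower with doxycycline, and 7.28% and 2.99% at 4 h. At 8 h TGFBR1 (1.20, SE 0.06) and MEF2A (1.18, SE 0.05) were called higher, beside 14.9% of all tested genes. At 12 h 5 were called higher, beside 17.1%, namely TGFBR2 (1.92, on 39 to 66 counts), TGFBR1 (1.46), MEF2D (1.17), MEF2A (1.16) and NR3C1, the glucocorticoid receptor (1.01). The last 3 were beyond the naming rule and chosen after their values were seen. TGFB2 was called lower at 12 h (−2.33, on 4 to 10 counts), beside 15.4% of all tested genes. The list's median log2 fold changes were 0.03 with doxycycline and 0.07, 0.29 and 0.39 at 4, 8 and 12 h.

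Partners and turnover factors of KLF proteins were listed as well. Of 11 cofactors, FHL3 was the 1 called higher at 8 h (1.69, SE 0.35) and 12 h (1.45, SE 0.35), on at most 61 counts, beside 14.9% and 17.1% of all tested genes. By limma-voom and edgeR the other 10 were not called in either direction, where 8.86% and 15.4% of all genes were lower at these times. With doxycycline and at 4 h 0 cofactors were called by limma-voom, edgeR or DESeq2, with 3 higher and 5 lower (doxycycline) and 2 higher and 6 lower (4 h) at an unadjusted p under 0.05. The shares of all genes called were 12% higher and 7.19% lower with doxycycline, and 7.28% and 2.99% at 4 h. DESeq2 called 2 cofactors higher at 12 h. Of 9 genes of protein turnover, 1 was called higher at 4 h, 2 at 8 h and 3 at 12 h, beside the same shares of all genes (7.28%, 14.9% and 17.1%). FBXO32, a muscle F-box protein, was called at all 3 times (1.50, 1.90 and 1.49), FBXW7, the F-box protein that targets KLF2 and KLF5, at 8 h (1.18), and SMURF1 (1.06) and SIAH1 (1.00) at 12 h. With doxycycline 0 of the 9 were called by the 3 tools, with 5 higher and 2 lower at an unadjusted p under 0.05.

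Genes reported as KLF targets in other tissues were mixed. Of 17 listed, 11 were tested, and 2, 6 and 5 were called higher at 4, 8 and 12 h, beside 7.28%, 14.9% and 17.1% of all genes, with medians of 0.44, 1.02 and 0.72 against −0.01, −0.02 and −0.01 over all genes. CDKN1A, the cell cycle inhibitor induced by KLF4 and KLF6, went from 47.1 ± 2.89 CPM with DMSO to 155 ± 5.75, 300 ± 0.698 and 388 ± 23.7 (1.72, 2.67 and 3.05, SE 0.05 to 0.06). With doxycycline CDKN1A was also higher, at 20.6 ± 0.26 against 12.2 ± 0.499 CPM (0.75, SE 0.1), under the fold threshold. PLAU had 0 to 1 counts with DMSO and was at least 9.42-, 14.6- and 6.17-fold higher at 4, 8 and 12 h, taking 3 counts per DMSO library as the floor. PRODH rose at 8 h (2.60, SE 0.47) and NOS3 at 12 h (3.48, SE 0.52), both from at most 8 counts per DMSO library. At 12 h FASN (2.94) and PRODH (2.31) were also called higher and ENG (−2.58) lower, and these 3 were named after their values were seen. With doxycycline 2 targets were called higher and 3 lower, beside 12% and 7.19%. DIO1, at 0 to 2 counts in shERG.DMSO, was at least 8.02-fold higher. THBD was lower (−2.05, SE 0.51), on 2 to 7 counts in shERG.Dox against 13 to 21 in shERG.DMSO. PLAU stood at 1 to 6 counts against 0, at least 1.02-fold higher. The remaining calls were FASN (−1.06) and ENG (−1.01), again named after their values were seen.

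For each member the 2 other genes whose log2 CPM followed it most closely over the 18 libraries were taken from 11301 genes with a mean count of at least 50. The libraries fall into 6 groups, so the Pearson r mainly follows the group means and is given as a description. KLF6 was followed by H1-2 (0.996) and ERRFI1 (0.993), KLF4 by RND3 and FOSL2 (0.993 each), and KLF5 by NPTX2 (0.991) and GCLC (0.99). KLF3 was followed by F11R (0.988) and CDC14A (0.987), KLF9 by KDM6A (0.988) and RGL1 (0.987), and KLF2 by GTF2B and RGS2 (0.983 each). KLF11 was followed by MASTL (0.984) and ACOT7 (0.98), KLF10 by FGF13 (0.974) and NOA1 (0.969), and KLF13 by ARHGAP32 (0.955) and SYT4 (0.953). KLF15 had the least close companions, ZNF555 (0.877) and MSX1 (0.869).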

How the data were processed

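Whole-number read counts per gene in 18 rRNA-depleted, paired-end libraries were deposited by the authors. The submitters' notes name STAR, featureCounts and hg38, whereas the study's methods name Kallisto. Annotation and strand setting are not given in the sources used here. Of 22034 Ensembl IDs, 22011 matched a symbol, and 14164 genes passed edgeR's filterByExpr. The counts were TMM-scaled (edgeR 4.0.16) and tested with limma-voom (limma 3.58.1, R 4.3.3). The 6 shERG and 12 parental libraries were fitted apart, and the differences between responses were fitted over all 18. P-values were Benjamini-Hochberg adjusted over all tested genes. CPM are relative to the counts of tested genes, TMM-scaled within each line, and exon lengths and positions are from GENCODE 29 (GRCh38). Replicates were treated as separate samples, so p-values measure the spread between these libraries. Libraries of a group differed by more than sampling noise (chi-square per degree of freedom 1.7 to 5.04). Alternatives included edgeR's quasi-likelihood test, DESeq2 1.42.0, other scalings and filters, and leaving out each library. Named genes were all members, ERG, at most 3 called genes of largest change per list and comparison, and the 2 closest genes in pattern. Members and lists were chosen with earlier results of these data known. Some listed genes are not reported here and were left out of the list counts. The fits were tested on simulated data.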

Additional observations from a re-analysis of the deposited data

Results flagged for a closer look

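The response of 3 KLF genes to PBITE-1 differed between times, by the limma-voom test of the difference itself (adjusted p under 0.05 and a log2 difference above 1 in size, n = 3 libraries a time). KLF3 was 1.23 higher on the log2 scale at 8 h than at 4 h. KLF2 was lower at 12 h than at 8 h (−2.03) and than at 4 h (−1.54). KLF11 was lower at 12 h than at 8 h (−1.18), where its level had been above that of DMSO. In each of these 4 comparisons the libraries of the 2 times did not overlap, and each kept its direction and its call in the 12 fits that left out 1 library.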

How the results depend on the processing

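Under the alternatives no member's call changed direction. With the adjusted p alone, more members passed: with doxycycline 2 higher, at 12 h 9 higher and 1 lower, from 4 h to 8 h 7 higher and 2 lower, from 8 h to 12 h 2 higher and 7 lower, from 4 h to 12 h 5 higher and 5 lower, and in the response difference at 4 h 1 lower. With library size only, 1 member was lower with doxycycline (KLF10), as KLF11 stood at −0.91. With at least 10 counts in every sample (11807 genes), KLF2 was not tested, which left 1 member lower from 8 h to 12 h and 0 from 4 h to 12 h. Leaving out 1 library gave 0 to 1 members higher from 4 h to 12 h, KLF4 reaching 1.06 without PBITE-1 12 h replicate 1 and 1.00 without PBITE-1 4 h replicate 3. KLF15 at 12 h was 0.91 to 1.05 in these fits and was called in 5 of 12. Its response difference at 8 h was 0.92 with upper-quartile scaling and 0.78 with library size only. Replicate numbers did not pair the libraries (r of deviations −0.02 to 0.04). With the replicate number as a block, the counts of members called were the same, such as 6, 7 and 5 higher at 4, 8 and 12 h and 2 lower with doxycycline. The depth limits KLF2 most, with 2 to 12 counts in libraries without PBITE-1.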
